A study of Mus musculus with 35 samples.

Results

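Cholecystokinin, the bombesin-like peptides and their receptors were examined as 7 genes among the 52636 Ensembl genes counted in each library. The 3 ligand genes, Cck (cholecystokinin), Grp (gastrin-releasing peptide) and Nmb (neuromedin B), and 4 receptor genes, Cckar, Cckbr, Grpr and Nmbr, were taken by symbol, and each matched 1 gene identifier. The data were 35 RNA-seq libraries of cells captured with a laser from the basolateral amygdala of 19 female mice. The mice were of the inbred strain C57BL/6J or of the hybrid strain B6D2F1N, and lived in standard housing or had access to an enriched playground cage for 1 h per day. All of them went through the same steps: they were kept on restricted food and were trained on a touchscreen from postnatal day 70. They were assigned to housing on day 77 and took a judgment bias test of 5 days, so no untrained animal stands as a reference. Training lasted 37 to 90 days, depending on how fast each mouse learned, so age at sampling differed between mice. The paper reports that mice of the inbred strain learned more slowly and were older, without statistical significance. The strain comparisons below were not adjusted for age or training length. Of the mice labelled optimist or pessimist after the judgment bias test, all optimists lived in standard housing and most pessimists in enriched housing. The paper found no association of the optimism score with strain or housing. The housing comparisons below were not adjusted for these labels. An anterior and a posterior portion of the amygdala were sampled. In standard housing there were 4 anterior and 4 posterior libraries of C57BL/6J and 5 and 5 of B6D2F1N. In enriched housing there were 2 and 4 of C57BL/6J and 5 and 6 of B6D2F1N. Both portions were present for 16 mice, 6 of C57BL/6J and 10 of B6D2F1N, and mice are numbered within strain and housing. The methods of the study assign the section range nearer to bregma to the posterior portion and the farther range to the anterior one, which is the reverse of the anatomical order. The portion labels were used as deposited, and every difference between portions below would change its sign if the labels were exchanged.

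Cholecystokinin is among the most abundant neuropeptides of the forebrain. In the basolateral amygdala it is made by a class of basket interneurons that also carry the cannabinoid receptor, and by part of the excitatory neurons. Its brain receptor is CCK-B, the product of Cckbr, while CCK-A, the product of Cckar, is best known from the gut, the pancreas and a few brain nuclei, and both couple mainly to Gq. Gastrin-releasing peptide and neuromedin B are the mammalian relatives of the amphibian peptide bombesin and act on the Gq-coupled receptors encoded by Grpr and Nmbr. In the lateral amygdala, gastrin-releasing peptide of principal cells is known to excite interneurons that carry its receptor, a circuit studied for its restraint of learned fear.

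The libraries held between 16938534 and 27352623 counts on genes. Each library correlated with the others of its portion at a median Spearman's rho of at least 0.891. Both libraries of B6D2F1N standard mouse 1 had 0 counts of Xist, the RNA of the inactive X chromosome, against their female label, and the portion results of Grp, Cck and Gast, the strain result of Nmbr and the anterior housing result of Cck are also given without this mouse. Markers of the labelled tissue were present: all 9 genes of an excitatory neuron list and all 8 genes of a basolateral amygdala excitatory neuron list had counts in both portions. At this depth a count is a low bar, and markers of other tissues had counts too, so this does not test the tissue label. The anterior library of B6D2F1N standard mouse 3 stood apart in its neurons, with the lowest summed excitatory neuron markers of the anterior libraries (2600 CPM, counts scaled to the size of the library) and the highest summed inhibitory neuron markers (1290 CPM). Markers of the choroid plexus, which lies in the ventricles, summed to between 6.73 and 945 CPM in anterior libraries and between 136 and 14400 CPM in posterior ones. The median of this sum was 15.5 CPM over 16 anterior libraries and 1480 CPM over 19 posterior libraries.

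On GRCm38, Cck (ENSMUSG00000032532) lies at chr9:121489824-121495694 on the minus strand, Grp (ENSMUSG00000024517) on the plus strand of its chromosome, and Nmb (ENSMUSG00000025723) at chr7:80902227-80905076 on the minus strand. Of the receptor genes, Cckbr (ENSMUSG00000030898) lies at chr7:105425731-105470898 on the plus strand, Cckar (ENSMUSG00000029193) at chr5:53697776-53707705 on the minus strand, Grpr (ENSMUSG00000031364) at chrX:163513904-163549677 on the minus strand and Nmbr (ENSMUSG00000019865) at chr10:14705591-14770850 on the plus strand. Of the 793 exon bases of Nmb, 163 are shared with Sec11a on the same strand, so the counts of Nmb can depend on how reads on those bases were assigned. Nmbr shares 504 exon bases with the antisense gene B230364G03Rik, which had 153 counts over all libraries, against 6377 for Nmbr. Whether strand was used in counting was not given, so the reads of this pair cannot be told apart.

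RefSeq promoter windows on GRCm38.p6, each of 300 bases with 250 before the transcription start, were found for 5 of the 7 genes. The windows of Cck and Cckbr are shown because this ligand and its receptor were both lower in the posterior portion, and the window of Nmbr because the strain comparison of the posterior portion turns on this receptor. Cck is read from the minus strand of chr9:121495645-121495944, Cckbr from the plus strand of chr7:105425481-105425780 and Nmbr from the plus strand of chr10:14759697-14759996, all 5′ to 3′. The letters searched, on both strands, were TGACG (the core of the cyclic AMP response element, to which CREB binds), TGANTCA (the AP-1 motif), GGGCGG (the GC box), TATAAA (the TATA box) and CANNTG (the E-box). Capitals mark every match except the E-box, and a match on the opposite strand reads as its reverse complement. The RefSeq start of Nmbr lies downstream of the start of the gene in the GENCODE annotation.
Cck: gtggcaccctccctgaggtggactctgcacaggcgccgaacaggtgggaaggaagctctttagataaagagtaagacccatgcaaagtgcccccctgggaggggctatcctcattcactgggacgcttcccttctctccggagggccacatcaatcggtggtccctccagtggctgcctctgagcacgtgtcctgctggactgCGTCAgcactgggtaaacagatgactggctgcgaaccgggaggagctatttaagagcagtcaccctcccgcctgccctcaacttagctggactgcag
Cckbr: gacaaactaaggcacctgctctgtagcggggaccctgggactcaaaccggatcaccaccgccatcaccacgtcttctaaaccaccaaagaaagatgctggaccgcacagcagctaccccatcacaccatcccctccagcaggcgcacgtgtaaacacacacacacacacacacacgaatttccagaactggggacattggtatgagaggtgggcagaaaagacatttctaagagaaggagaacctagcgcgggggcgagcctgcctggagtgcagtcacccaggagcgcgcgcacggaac
Nmbr: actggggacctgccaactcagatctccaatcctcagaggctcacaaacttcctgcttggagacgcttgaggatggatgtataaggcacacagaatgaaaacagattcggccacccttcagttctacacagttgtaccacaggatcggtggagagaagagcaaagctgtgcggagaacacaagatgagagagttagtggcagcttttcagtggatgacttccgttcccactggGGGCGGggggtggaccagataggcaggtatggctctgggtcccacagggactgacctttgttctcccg
The Cck window held TGACG once, on the strand opposite to the one printed, beginning 47 bases before the start. The Cckbr window held none of the first 4 motifs and 2 E-boxes, and the Nmbr window held 1 GC box, 18 bases before the start. Among all 32851 windows of this length, 20.8% held TGACG, 7.81% the AP-1 motif, 35.7% a GC box, 13.6% a TATA box and 72.3% an E-box, so these letters are common. The windows of Grpr and Nmb were searched as well, and that of Grpr held TGACG at 80 bases before the start while that of Nmb held 3 GC boxes, as many or more of which were in 10.7% of all windows.

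Levels of different genes were compared per length, as CPM per kb of exon (the plot of levels per length). In the anterior portion Cckbr and Cck were highest, with medians of 77.9 and 72.1 CPM per kb over 16 libraries. Cckbr was above Cck in only 7 of those 16 libraries, so these neighbours were not separated. Grp followed at 11.1 CPM per kb, below Cck in all 16 libraries and above Nmb (1.55) in all 16. Nmb, Grpr (0.957) and Nmbr (0.761) lay close together, with Nmb above Grpr in 10 and Grpr above Nmbr in 8 of 16 libraries. In the posterior portion the order began differently: Grp was first at 45.6 CPM per kb, ahead of Cckbr (36.0) and Cck (25.1) over 19 libraries, with Grp above Cckbr in 11 and Cckbr above Cck in 11 of them. Nmb (3.00), Nmbr (1.83), Grpr (0.662) and Cckar (0.0152) followed, and Cck was above Nmb in all 19. Cckar, the gut-type receptor, had a count in only 16 of the 35 libraries and reached 12.1 CPM in 1 of them, the anterior library of B6D2F1N standard mouse 3. Where it had 0 counts, a level of up to 3 counts (0.11 to 0.177 CPM) is allowed, and this limit covers counting error only.

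**Figure D1:**
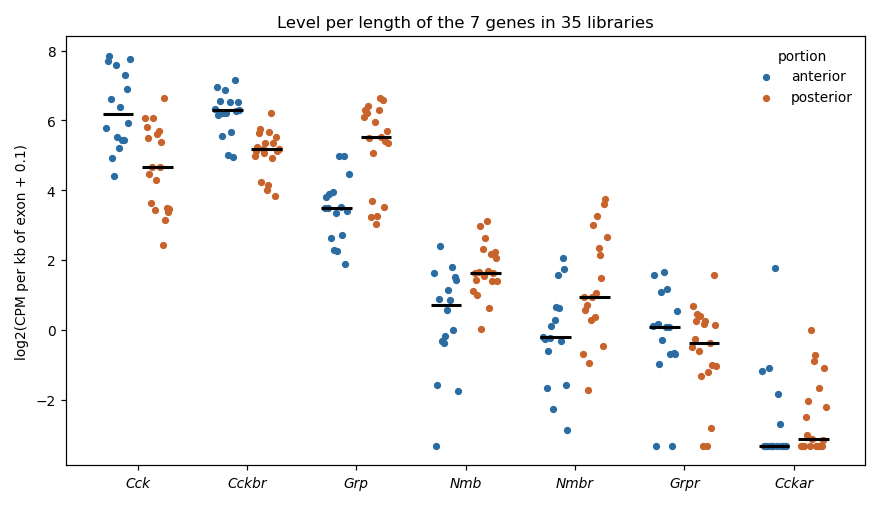
Level of each of the 7 genes as log2(CPM per kb of exon + 0.1), with 1 point per library (blue, 16 anterior; orange, 19 posterior) and a black line at the median. Cck and Cckbr lead in the anterior portion (72.1 and 77.9 CPM per kb), Grp lies in the same range in the posterior portion (45.6 CPM per kb), and Cckar lies at 0 counts in most libraries, drawn at the bottom.

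Between the portions, Grp, the ligand of the gastrin-releasing peptide receptor, was higher in the posterior amygdala, while Cck and the receptor gene Cckbr were lower there. Over the 16 mice with both portions, edgeR's quasi-likelihood test with the mouse as a block called 1 of the 7 genes higher and 2 lower at an adjusted p of at most 0.05, against 8.6% of the 29437 genes tested, 3.91% higher and 4.69% lower. In C57BL/6J alone, Grp and Cckbr were called, against 3.64% of 25751 genes, 1.54% higher and 2.1% lower. In B6D2F1N alone, Grp, Cckbr and Cck were called, against 4.0% of 27761 genes, 1.62% higher and 2.37% lower. The median log2 fold change (posterior over anterior) of all genes tested was 0.12 over both strains. RNA from a bulk of captured cells cannot tell fewer cells of a type from less RNA per cell. All p-values measure the spread between mice. Per the paper, mice shared cages with others of their strain, and playground access was given to a cage as a whole. The tests treated mice as independent and did not use the cage.

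Among the ligands, Grp ranged in the anterior portion from 5.31 to 46.8 CPM with a median of 16.5, and in the posterior portion of the same mice from 12.0 to 147 CPM with a median of 79.0. Posterior Grp was higher in 14 of 16 mice, with a median ratio of 4.94, and the portions overlapped through 4 mice whose posterior level stayed between 12.0 and 18.9 CPM. It was lower only in B6D2F1N standard mouse 2 (14.9 to 12.0 CPM) and C57BL/6J enriched mouse 3 (22.7 to 18.9 CPM). The widest ratio, 13.0, was in B6D2F1N standard mouse 1, from 6.99 to 90.6 CPM. The log2 fold change of Grp was 1.98 ± 0.253 (SE, n = 16 mice, edgeR adjusted p = 5.37e-06), with 2.25 ± 0.32 in C57BL/6J (adjusted p = 0.000322) and 1.79 ± 0.302 in B6D2F1N (adjusted p = 0.00179). Leaving out each mouse in turn, B6D2F1N standard mouse 1 included, kept it between 1.86 and 2.12.

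Cck ranged from 27.6 to 302 CPM in the anterior portion (median 94.0) and from 6.91 to 129 CPM in the posterior portion of the same mice (median 43.6). The portions overlapped widely, but Cck was lower posteriorly in 12 of 16 mice, with a median anterior-to-posterior ratio of 3.51 and the highest, 20.0, in B6D2F1N enriched mouse 6 (285 to 14.3 CPM). The other 4 mice had a higher posterior level: C57BL/6J standard mouse 1, C57BL/6J enriched mouse 3 and B6D2F1N standard mice 2 and 3. The log2 fold change was -1.53 ± 0.363 (SE, n = 16 mice, edgeR adjusted p = 0.00655) and stayed between -1.72 and -1.35 without each mouse in turn. In B6D2F1N it was -1.87 ± 0.454 (adjusted p = 0.0226), a call lost without each of 5 mice (standard mice 1 and 4, enriched mice 1, 3 and 4), with adjusted p from 0.0507 to 0.0697. In C57BL/6J it was -1.04 ± 0.412 (adjusted p = 0.234), and without enriched mouse 3, whose Cck was 27.6 CPM anteriorly and 87.9 CPM posteriorly, it was -1.51 (adjusted p = 0.00327). The difference of the portion effect between strains was -0.83 ± 0.704 (adjusted p = 1.0).

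Nmb, the neuromedin B gene, was low throughout, at 0 to 4.08 CPM anteriorly (median 1.23) and 0.73 to 6.85 CPM posteriorly (median 2.29) in the 16 mice. Its posterior level was higher in 13 of 16 mice, but edgeR did not call the log2 fold change of 1.29 ± 0.503 (SE, adjusted p = 0.128). DESeq2, run on the same counts, did (adjusted p = 0.0278), as it did in B6D2F1N alone (adjusted p = 0.0305).

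**Figure D2:**
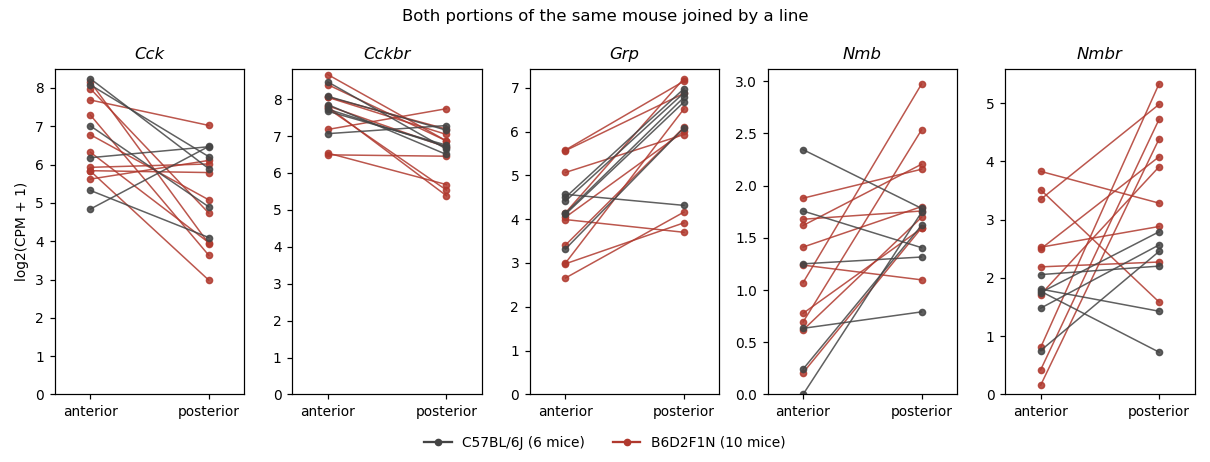
Level of Cck, Cckbr, Grp, Nmb and Nmbr as log2(CPM + 1) in the anterior and posterior portions, with a line joining the libraries of 1 mouse (grey, 6 C57BL/6J; red, 10 B6D2F1N) and a separate scale for each gene. Lines fall in 12 of 16 mice for Cck and 14 of 16 for Cckbr, and rise in 14 of 16 for Grp, 13 of 16 for Nmb and 12 of 16 for Nmbr.

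Among the receptors, Cckbr, the brain receptor of cholecystokinin, was lower posteriorly over the 16 mice, as its ligand was. This did not hold mouse by mouse: every mouse with higher posterior Cck had lower posterior Cckbr. It ranged from 89.0 to 405 CPM anteriorly (median 223) and from 40.8 to 213 CPM posteriorly (median 106), and was lower posteriorly in 14 of 16 mice, with a median anterior-to-posterior ratio of 2.02. The exceptions were C57BL/6J enriched mouse 1 (133 to 155 CPM) and B6D2F1N standard mouse 5 (144 to 213 CPM), and in both of them posterior Cck was lower. The log2 fold change was -1.07 ± 0.174 (SE, n = 16 mice, edgeR adjusted p = 0.000134), with -0.98 ± 0.204 in C57BL/6J (adjusted p = 0.00832) and -1.14 ± 0.234 in B6D2F1N (adjusted p = 0.00767). Without C57BL/6J standard mouse 1 the call in C57BL/6J was lost (-0.88, adjusted p = 0.0571).

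Nmbr, the neuromedin B receptor gene, ranged from 0.116 to 13.2 CPM anteriorly (median 2.45) and from 0.653 to 39.3 CPM posteriorly (median 6.15), and was higher posteriorly in 12 of 16 mice. Its log2 fold change of 1.37 ± 0.58 was not called with the mouse as a block (SE, edgeR adjusted p = 0.171) and was called without the block (1.60, adjusted p = 0.0261). Grpr, the receptor of gastrin-releasing peptide, stayed between 0 and 7.64 CPM in all libraries, and was higher posteriorly in 7 of 16 mice, with a log2 fold change of -0.40 ± 0.688 (SE, edgeR adjusted p = 0.813). For Grpr the 95% interval of the difference, from -1.75 to 0.95, does not exclude a change as large as that of Cckbr. No fold change is given for Cckar, which had 0 counts in 11 of 16 anterior and 8 of 19 posterior libraries.

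The remaining ligand and receptor of these families were sparse. Gast, which encodes gastrin, the peptide that shares the CCK-B receptor with cholecystokinin, had at most 19 counts in a library. Brs3, an orphan receptor of the bombesin family, reached 27.8 CPM posteriorly in C57BL/6J enriched mouse 4. In the anterior portion Gast had 0 counts in 14 and Brs3 in 10 of 16 libraries, so no fold change is given. Brs3 was higher posteriorly in 13 of 16 mice, from a median of 0 to 2.30 CPM (edgeR adjusted p = 0.0122), and Gast in 11 of 16 mice, from a median of 0 to 0.19 CPM (adjusted p = 0.0219). The highest anterior level of both genes, 5.07 and 0.994 CPM, was in B6D2F1N standard mouse 3. Neither was called without the mouse block (adjusted p = 0.116 and 0.274), and Gast was not called without B6D2F1N standard mouse 1 (adjusted p = 0.0514).

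Genes that serve these peptides also differed between the portions. Of 18 genes of peptide processing and secretion, 1 was higher and 9 were lower posteriorly over both strains, with a median log2 fold change of -0.40 beside 0.12 for all genes. None was higher within a strain, while 6 were lower in C57BL/6J and 5 in B6D2F1N. They included Pcsk2, a convertase that cleaves propeptides (-1.42 ± 0.161 in C57BL/6J and -1.24 ± 0.169 in B6D2F1N, SE, edgeR adjusted p = 3.43e-05 and 0.000282). Chgb, a granule protein of the chromogranin family, was lower as well (-1.99 ± 0.23 and -1.98 ± 0.213, adjusted p = 4.32e-05 and 4.06e-05). Of 19 genes of the Gq pathway that these receptors use, 1 was higher and 5 were lower over both strains (median -0.20). In C57BL/6J the lower ones were led by Itpr1, the calcium channel opened by inositol trisphosphate (-1.37 ± 0.154, adjusted p = 3.28e-05), and Plcb1, a phospholipase C (-0.93 ± 0.147, adjusted p = 0.000888), while the cation channel gene Trpc4 was higher (1.23 ± 0.19, adjusted p = 0.000674). In B6D2F1N they were led by Prkcb, a protein kinase C (-1.46 ± 0.178, adjusted p = 0.000107), and Plcb1 (-0.88 ± 0.139, adjusted p = 0.00108).

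Markers of cell types moved with the portions too, and their part in the differences of the peptide genes was not tested. Of 9 excitatory neuron markers, 1 was higher and 6 were lower posteriorly over both strains, with summed levels of 2600 to 7040 CPM anteriorly and 1660 to 6420 CPM posteriorly. Tbr1, a transcription factor of cortical excitatory neurons, was lower in both strains (-2.25 ± 0.362 in C57BL/6J and -2.38 ± 0.327 in B6D2F1N, SE, edgeR adjusted p = 0.00103 and 0.00029), and Slc17a6, a vesicular glutamate transporter, was higher (1.58 ± 0.37 and 1.38 ± 0.245, adjusted p = 0.0198 and 0.00265). None of 8 inhibitory neuron markers was called. Of 10 markers of the interneurons in which cholecystokinin is made, Cck itself left out, 2 were higher and 6 lower. Cnr1, the cannabinoid receptor, was lower (-0.90 ± 0.138 and -1.26 ± 0.268, SE, edgeR adjusted p = 0.000669 and 0.00947). Going the other way, Calb2 was higher (2.00 ± 0.345 and 1.71 ± 0.448, SE, edgeR adjusted p = 0.0019 and 0.0365). Htr3a was higher in C57BL/6J (1.53 ± 0.201, SE, edgeR adjusted p = 0.000143). Of 8 markers of basolateral excitatory neurons, 2 were higher and 2 lower. All 5 choroid plexus and all 5 ependymal markers were higher, as were 3 of 7 astrocyte markers and 1 of 6 markers of meningeal fibroblasts. Of the other lists, 1 of 7 microglia and 1 of 6 endothelial markers were lower, and none of 8 oligodendrocyte or 10 striatal and central amygdala markers was called over both strains. Within strains, the striatal list had Drd1 lower in C57BL/6J (-1.28 ± 0.338, SE, edgeR adjusted p = 0.0426) and Tac1 higher in B6D2F1N (1.17 ± 0.305, adjusted p = 0.0358).

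Within the posterior portion Grp fell into separate ranges. In 5 of the 19 libraries it lay between 12.0 and 18.9 CPM, and in the other 14 between 49.6 and 147 CPM. The 5 low libraries were those of C57BL/6J enriched mice 2 and 3, B6D2F1N standard mice 2 and 3 and B6D2F1N enriched mouse 3. Cckbr was also low in 4 of these 5, between 40.8 and 53.7 CPM, against 86.7 to 213 CPM in the other 14. In C57BL/6J enriched mouse 3 it was at 104 CPM, within the range of those 14. Cck did not share this division, with a median of 63.7 CPM in the 5 libraries and 27.2 CPM in the 14. Nmbr lay between 1.36 and 6.37 CPM in the 5 libraries and between 0.653 and 42.9 CPM in the 14. Summed markers of basolateral excitatory neurons had a median of 555 CPM in the 5 libraries and 1180 CPM in the 14, and summed oligodendrocyte markers 19600 and 11800 CPM. These ranges were seen in the data and are not groups of the study, and no test was made between them.

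**Figure D3:**
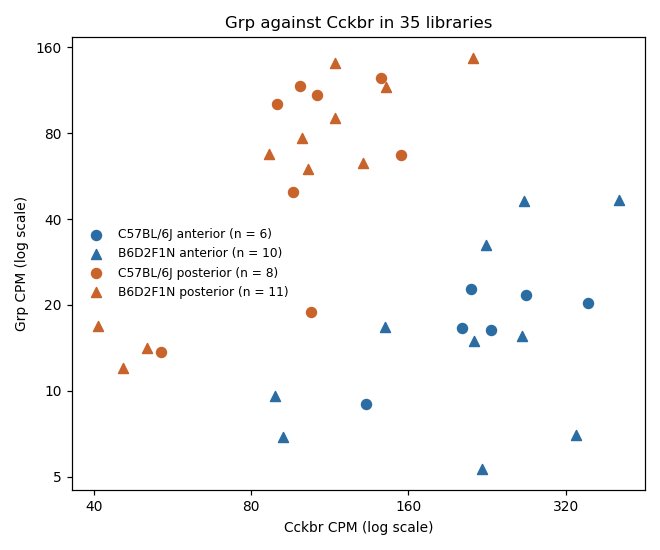
Grp against Cckbr in CPM on log scales, with 1 point per library (blue, anterior; orange, posterior; circles, C57BL/6J; triangles, B6D2F1N). The 14 posterior libraries with Grp at 49.6 to 147 CPM lie above all anterior ones (at most 46.8 CPM) and overlap them in Cckbr (86.7 to 213 against 89.0 to 405 CPM). The other 5 posterior libraries have Grp at 12.0 to 18.9 CPM, and 4 of them also have the lowest Cckbr of all libraries (40.8 to 53.7 CPM).

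As a description across libraries, which share their depth and their cell makeup, the log2 CPM of Grp and Cckbr correlated at Pearson's r = 0.50 in the 16 anterior libraries and 0.42 in the 14 posterior libraries of the upper Grp range. No value is given over all 19 posterior libraries for this pair, because Grp fell into separate ranges there. Cck and Cckbr correlated at 0.63 in the 16 anterior and 0.01 in the 19 posterior libraries, and Nmb and Nmbr at 0.37 and 0.00. Among genes with a mean of at least 5 CPM, those whose log2 CPM followed each gene most closely over all 35 libraries were Arhgdig (r = 0.92), Igsf21 (0.86) and Klc1 (0.84) for Cck. For Cckbr they were Slc39a10 (0.93), Cacng3 (0.93) and Syngr3 (0.92), and for Grp Kctd4 (0.87), Arhgef28 (0.85) and Tspan6 (0.85). All 9 of these kept r of at least 0.61 within each portion alone. For the genes named for Grp, the values over all 35 and over the posterior libraries span both ranges of Grp, so that separation enters them. The closest genes to the sparse members were further off: Snx25 (0.79), Tppp3 and Olfml2b (0.73 each) for Nmb, Gm12940 (0.78), N4bp2l2 (0.77) and Fchsd2 (0.75) for Nmbr, and Leo1 (0.65), Cbx7 (0.61) and Ppp2r3c (0.60) for Grpr.

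Between the strains, none of the 7 genes was called by edgeR in any of the 4 comparisons within housing and portion, where 0.37% (standard anterior), 0.0639% (enriched anterior), 0.373% (standard posterior) and 0.394% (enriched posterior) of all genes tested were called. At an unadjusted p under 0.05 in edgeR, 0, 1, 1 and 1 of the 7 genes passed. Among all genes tested, 2187 of 24305, 1016 of 23459, 2605 of 25171 and 2336 of 25640 passed. DESeq2 also called 0, 1, 1 and 1 of the 7 genes. Over all genes it called at least 137 in each of the 4 comparisons, where edgeR called at most 101. The receptor gene Nmbr stood out in the posterior portion. In standard housing it was at 1.69, 5.92, 4.48 and 4.92 CPM in the 4 C57BL/6J mice, and at 25.4, 3.83, 6.37, 30.5 and 15.9 CPM in the 5 B6D2F1N mice. In enriched housing it was at 0.653, 1.36, 3.60 and 5.86 CPM in the 4 C57BL/6J mice, and from 2.00 to 42.9 CPM (median 17.0) in the 6 B6D2F1N mice. The strains overlapped: 9 of the 11 B6D2F1N posterior libraries were above 5.92 CPM, the highest C57BL/6J level, while standard mouse 2 (3.83 CPM) and enriched mouse 3 (2.00 CPM) were below it.

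The log2 fold change of Nmbr (B6D2F1N over C57BL/6J) was 1.94 ± 0.563 in standard posterior libraries (SE, edgeR adjusted p = 0.285) and 2.90 ± 0.752 in enriched posterior libraries (adjusted p = 0.178). DESeq2 called both (adjusted p = 0.0297 and 0.0368). An edgeR fit of strain and housing as additive terms over all 19 posterior libraries gave 2.42 ± 0.528 (SE, adjusted p = 0.0171). Without single mice, B6D2F1N standard mouse 1 included, the standard comparison stayed between 1.60 and 2.19 and was not called. Without B6D2F1N enriched mouse 3 the enriched comparison was called in edgeR (3.13, adjusted p = 0.0446). In the anterior portion the log2 fold changes were 1.31 ± 0.706 and 0.97 ± 1.33 (SE, adjusted p = 0.604 and 1.0), with 0.685 to 3.16 CPM in 6 C57BL/6J and 0.116 to 13.2 CPM in 10 B6D2F1N libraries. No cell type marker was called between strains in the posterior portion, but medians of several lists lay away from that of all genes. The 10 striatal and central amygdala markers had a median log2 fold change between strains of 1.01 in standard and 0.32 in enriched posterior libraries, and the 5 choroid plexus markers one of 1.32 and 2.76, beside 0.05 and 0.03 for all genes. Ependymal markers were at 1.15 and -0.02, meningeal fibroblast markers at -0.92 and -0.08, and endothelial markers at -0.74 and -0.29. Oligodendrocyte markers were at 0.09 and -0.95, and excitatory neuron markers at 0.04 and -0.71. The summed striatal and central amygdala markers were at 325 to 2620 CPM in the 8 C57BL/6J and 170 to 3360 CPM in the 11 B6D2F1N posterior libraries, with none of the 10 at 0. As a description over these 19 libraries, which share depth and cell makeup, Nmbr followed the summed striatal and central amygdala markers at a Spearman's rho of 0.71. This was the highest of all the lists there, and over the 16 anterior libraries it was 0.06. For choroid plexus markers rho was 0.50 in posterior and 0.54 in anterior libraries, and for meningeal fibroblast markers -0.19 and -0.72. The part of any of these lists in the strain difference was not tested. The test of whether the portion effect on Nmbr differed between the strains gave 1.40 ± 1.12 (SE, adjusted p = 1.0). Nmb, the ligand of this receptor, did not show the pattern, with log2 fold changes of 0.91 ± 0.571 and -0.25 ± 0.552 between strains in the posterior portion (SE, adjusted p = 0.66 and 0.957). Of the 7 genes, the one that DESeq2 called in enriched anterior libraries was Cck (2.25 ± 0.585, SE, edgeR adjusted p = 0.752, DESeq2 adjusted p = 0.0055), a comparison with only 2 C57BL/6J mice. For Cck the additive fit over all anterior libraries, which takes the same strain difference in both housings, gave 0.06 ± 0.57 (SE).

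**Figure D4:**
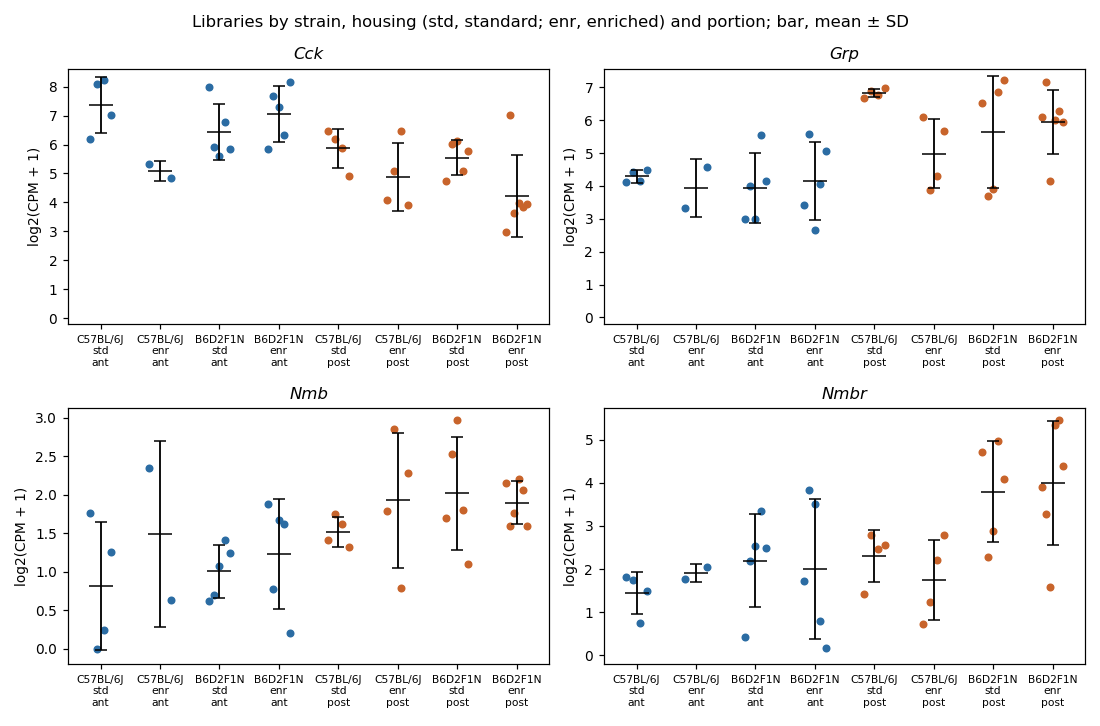
Level of Cck, Grp, Nmb and Nmbr as log2(CPM + 1) in the 8 groups of strain, housing and portion, with 1 point per library and bars for the mean ± SD. Nmbr is highest in the posterior libraries of B6D2F1N (2.00 to 42.9 CPM), Cck of C57BL/6J anterior libraries is lower in the 2 enriched mice (27.6 and 39.1 CPM) than in the 4 standard mice (71.5 to 302 CPM), and posterior Grp of C57BL/6J is lower in the 4 enriched mice.

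Between the housing conditions, none of the 7 genes was called by edgeR in any of the 4 comparisons, in which 0% of all genes tested (C57BL/6J anterior), 0% (B6D2F1N anterior), 0.0163% (C57BL/6J posterior) and 0% (B6D2F1N posterior) were called. At an unadjusted p under 0.05 in edgeR, 2, 1, 1 and 0 of the 7 genes passed. Among all genes tested, 1418 of 22865, 1553 of 24639, 2515 of 24526 and 1716 of 26028 passed. DESeq2 called 1, 0, 1 and 0 of the 7 genes. It called 100 of 18842, 8 of 23865, 319 of 20445 and 13 of 23682 genes in all. The first of the 7 genes that DESeq2 called was Cck in the anterior portion of C57BL/6J. It was at 71.5, 270, 302 and 128 CPM in the 4 mice of standard housing and at 39.1 and 27.6 CPM in the 2 mice of enriched housing. The groups did not overlap, and the log2 fold change (enriched over standard) was -2.55 ± 0.519 (SE, edgeR adjusted p = 0.482, DESeq2 adjusted p = 0.000199). In these libraries the median log2 fold change was 1.18 over 10 striatal and central amygdala, 0.84 over 8 oligodendrocyte and 2.57 over 5 ependymal markers, beside -0.01 for all genes, and the part of these lists in the Cck difference was not tested. In B6D2F1N anterior libraries Cck was at 252, 59.9, 48.2, 109 and 56.3 CPM in standard and at 56.0, 205, 156, 79.1 and 285 CPM in enriched housing. These groups overlapped, at 0.57 ± 0.476 (SE, adjusted p = 1.0). Without standard mouse 1 (252 CPM, 0 counts of Xist) the value was 1.19 (adjusted p = 0.842), and without enriched mouse 6 (285 CPM) it was 0.22. The difference between the strains in the effect of housing was 3.11 ± 0.868 (SE, edgeR adjusted p = 0.814). For Cck the additive fit over all anterior libraries, which takes the same housing effect in both strains, gave -0.28 ± 0.556 (SE, edgeR adjusted p = 0.999).

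In the posterior portion Cck was 61.9 ± 25.0 CPM (SD, n = 4) in standard and 37.8 ± 34.5 CPM (SD, n = 4) in enriched C57BL/6J mice, with a log2 fold change of -0.73 ± 0.482 (SE, edgeR adjusted p = 0.65). Without enriched mouse 3 (87.9 CPM) it was -1.54 (adjusted p = 0.0861), and without enriched mouse 1 or 4 it was -0.48 or -0.44. Of the 6 enriched B6D2F1N mice, 5 had 6.91 to 14.6 CPM, below the 25.6 to 68.0 CPM of the 5 standard mice, and mouse 2 had 129 CPM. The log2 fold change was -0.65 ± 0.632 with this mouse and -2.05 ± 0.304 without it (SE, edgeR adjusted p = 0.995 and 0.154).

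Grp was the other of the 7 genes that DESeq2 called, in the posterior portion of C57BL/6J. It was at 101, 117, 109 and 125 CPM in the 4 mice of standard housing and at 66.8, 13.7, 18.9 and 49.6 CPM in the 4 of enriched housing. The groups did not overlap, with a log2 fold change of -1.60 ± 0.396 (SE, edgeR adjusted p = 0.199, DESeq2 adjusted p = 0.00963). Summed oligodendrocyte markers moved with the housing groups as well, at 18200 to 28500 CPM in the 4 enriched and 8190 to 12800 CPM in the 4 standard libraries, and their part in the difference was not tested. In B6D2F1N the posterior levels were 90.6, 12.0, 14.1, 116 and 147 CPM in standard and 16.9 to 141 CPM (median 65.3, n = 6) in enriched housing. These overlapped, at -0.10 ± 0.576 (SE, adjusted p = 0.999), and the strain difference in the housing effect was 1.51 ± 0.824 (SE, adjusted p = 0.655). For Grp the additive fit over all posterior libraries, with the same housing effect in both strains, gave -0.74 and was not called.

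For the receptor gene Cckbr, log2 fold changes stayed between -0.33 and 0.51 in the 4 strain comparisons and between -0.64 and 0.18 in the 4 housing comparisons, with adjusted p of at least 0.789. None of the 7 genes was called in the 4 tests of whether an effect differed between strains, housings or portions, in which edgeR called 0% of all genes. The tests were portion by strain, portion by housing, and strain by housing in the anterior and the posterior portion. An unadjusted p under 0.05 was reached by 0, 0, 2 and 0 of the 7 genes. Among all genes it was reached by 871 of 29437, 968 of 29437, 1576 of 26353 and 2335 of 27871. DESeq2 called none of the 7 in these tests either, and 0, 3, 3 and 15 genes in all.

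**Figure D5:**
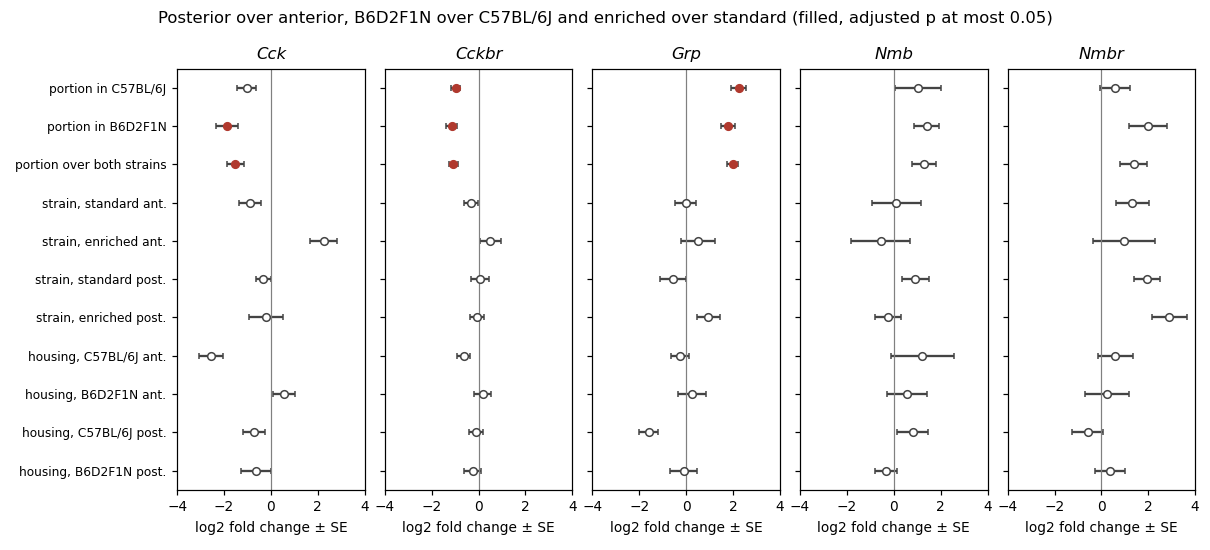
Log2 fold changes ± SE of 5 genes in the 11 comparisons of portion (posterior over anterior), strain (B6D2F1N over C57BL/6J) and housing (enriched over standard), filled where edgeR's adjusted p was at most 0.05. Only portion comparisons are filled: Grp to the right at 1.79 to 2.25, Cckbr to the left at -1.14 to -0.98, and Cck to the left at -1.87 and -1.53 in 2 of 3.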

How the data were processed

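RNA-seq read counts per Ensembl gene were used as the authors deposited them, as whole numbers without normalization. Per the study's methods and the submitters' processing notes, reads were checked with FastQC 0.11.7, trimmed with Trimmomatic 0.38, aligned to GRCm38 with HISAT2 2.1.0, sorted with SAMtools 1.8 and counted with HTSeq 0.11.2. The annotation release and strand setting are not given in the sources used here. GENCODE M21 gave positions and exon lengths. Totals of unassigned reads were left out of library sizes.

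CPM were scaled by TMM over all 35 libraries, and log2 CPM used a prior count of 2. Genes with at least 10 counts in a comparison were tested in R 4.3.3 with edgeR 4.0.16 (quasi-likelihood test, two-sided, Benjamini-Hochberg adjusted p at most 0.05 over all genes tested), after a check on simulated counts. The mouse was a block between portions, since both libraries came from 1 animal. Deviations of the same mouse from its group means correlated at a median r of 0.048 (-0.105 to 0.222, 16 mice, 16022 genes). Portions were compared in the 16 mice with both libraries, and strains and housings in 2 groups at a time. Alternatives were DESeq2 1.42.0, its size factors in edgeR, filterByExpr, no minimum count, no block, joint and additive fits and leaving out each mouse. The SE is the log2 fold change over the square root of F. A count of 0 was taken to allow 3 counts, which covers counting error only. The genes, lists and tests were chosen with earlier results of these data known. Beside the 7 genes, the text names Gast and Brs3, the 3 genes closest in r to each gene, and up to 2 genes per direction and list with the smallest p among those called between portions. Comparisons of portions share mice with those of strain and housing.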

Additional observations from a re-analysis of the deposited data

Results flagged for a closer look

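Among 49 sets of 1 gene in 1 group of 4 to 6 libraries, the highest library lay further from the others than Dixon's 95% limit in 8. Chance alone would mark about 1 in 20 such groups if CPM were normally distributed. Where all other libraries of a group had 0 counts, the limit was passed in any case, so this rate does not apply to Cckar. Cck was at 129 CPM in the posterior portion of B6D2F1N enriched mouse 2, where the other 5 mice of the group had 6.91 to 14.6 CPM. Grp was at 46.3 CPM in the anterior portion of B6D2F1N standard mouse 4, and Grpr at 7.27 CPM in the posterior portion of B6D2F1N enriched mouse 4. The remaining 5 were Cckar, which had 0 counts in most libraries. It was at 12.1 CPM in the anterior portion of B6D2F1N standard mouse 3, at 1.25 CPM in that of C57BL/6J standard mouse 1 and at 0.203 CPM in that of B6D2F1N enriched mouse 1. In the posterior portion it was at 3.33 CPM in C57BL/6J enriched mouse 4 and at 0.279 CPM in C57BL/6J standard mouse 4. The library with 12.1 CPM of Cckar was the one with the lowest summed excitatory markers of the anterior portion (2600 CPM), and the part of this in its Cckar level was not tested.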

How the results depend on the processing

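The portion differences of Grp, Cckbr and Cck over both strains kept their direction and call under every alternative run. Without each mouse in turn, the number of the 7 genes called between portions in C57BL/6J ranged from 1 to 3, with Cckbr lost without standard mouse 1 and Cck gained without enriched mouse 3. Over all genes, these fits called from 602 to 1070. Without the replicate block, Grpr in C57BL/6J turned to -0.18. In no strain or housing comparison did edgeR call any of the 7 genes, but DESeq2 called 1 of them in 5 comparisons. These were the enriched anterior, standard posterior and enriched posterior strain comparisons and the C57BL/6J anterior and posterior housing comparisons. Over all genes, DESeq2 called more than edgeR in each of these comparisons. With no minimum count 1 was called in the enriched anterior strain comparison and in both C57BL/6J housing comparisons. Over all genes, 57 of 29212, 274 of 28887 (anterior housing) and 112 of 30299 (posterior housing) were called there, against 15, 0 and 4 in the main fits. In the additive fit 1 was called in both posterior strain comparisons. Over all genes this fit called 239 of 27871, against 94 (standard) and 101 (enriched) in the main fits. Leaving out mice gave 0 to 1 in the enriched posterior strain comparison, with 1 without B6D2F1N enriched mouse 3. That fit called 86 of 25195 genes in all. The cause was not tested.

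Small differences that were not called changed sign. In the additive fit these were, between strains, Cck (0.06), Grp (0.18) and Nmb (-0.16) in standard anterior, Cckbr (-0.01) in enriched anterior, Cckbr (-0.01) and Grp (0.18) in standard posterior and Nmb (0.28) in enriched posterior libraries. Between housings they were Grp in C57BL/6J anterior (0.08), Cck (-0.28) and Cckbr (-0.09) in B6D2F1N anterior and Nmb (0.13) and Nmbr (-0.03) in B6D2F1N posterior libraries. Leaving out single mice, strain differences ranged for Grp from -0.71 to 0.19 in standard anterior and -0.01 to 1.27 in enriched anterior, for Nmb from -0.30 to 1.02, -1.39 to 1.54 and -0.59 to 0.26 in standard anterior, enriched anterior and enriched posterior, for Cckbr from -0.29 to 0.26 and -0.27 to 0.21 in standard and enriched posterior, and for Cck from -1.61 to 0.58 in enriched posterior libraries. Housing differences ranged for Grp from -1.04 to 0.25 in C57BL/6J anterior, -0.22 to 0.95 in B6D2F1N anterior and -0.43 to 0.28 in B6D2F1N posterior, for Nmb from -0.86 to 2.14 in C57BL/6J anterior and -0.60 to 0.05 in B6D2F1N posterior, for Cckbr from -0.08 to 0.42 in B6D2F1N anterior, -0.39 to 0.10 in C57BL/6J posterior and -0.46 to 0.09 in B6D2F1N posterior, and for Nmbr from -0.40 to 0.68 in B6D2F1N anterior libraries. The portion difference of Grpr in C57BL/6J ranged from -0.15 to 0.76. With 1 mouse left in the C57BL/6J enriched anterior group, that mouse is assumed to vary like the others.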
